A study of Homo sapiens with 6 samples.

Results

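The data described here are the mRNA levels of 43 genes of the actin cytoskeleton in OE-19 cells, a line of esophagogastric junction adenocarcinoma (AEG) cells, with and without knockdown of IGF2BP3, an RNA-binding protein that reads the m6A mark on mRNAs. The 43 genes were taken as a list of symbols by their known roles, drawn up when earlier results of these data were known, and all 43 were found among the 60480 gene identifiers of the count table. The control group, labelled shControl, comprised 3 libraries of OE-19 cells with a control knockdown, and the KD group comprised 3 libraries of OE-19 cells with IGF2BP3 knocked down by shRNA. Both groups came from the same line grown in RPMI1640 with 10% fetal bovine serum, and poly(A) RNA was sequenced on an Illumina NovaSeq. The sources do not say whether the 3 KD libraries carry the same shRNA or whether the replicates were separate cultures, so p-values measure the spread between these libraries, which may be technical. Total counts ranged from 53453621 to 70026203 per library.

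Actin polymerizes from monomers into polar filaments, and cofilin and profilin control how fast subunits leave and join. Formins and the Arp2/3 complex start new filaments, capping protein closes their ends, and tropomyosins coat them. Myosin II pulls on filaments, α-actinins, filamin and spectrin link them, and talin, vinculin and zyxin couple them to adhesions. ERM proteins tie the filaments to the plasma membrane, and in columnar epithelial cells this network carries the microvilli, the junctional belt and the contractile cortex.

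*IGF2BP3*, the targeted gene, was measured first. It stood at 108, 106 and 112 CPM (counts scaled by each library's total with edgeR's TMM method) in the control libraries and at 14.4, 12.8 and 12.6 CPM in the KD libraries, so every library carried the level its label implies. Epithelial markers were abundant in all libraries, with sums over 7 genes of 18743 to 19708 CPM in control and 20596 to 21077 CPM in KD cells. Most of this sum was *ERBB2* (13074 ± 516 and 14337 ± 279 CPM). *ERBB2*, *EPCAM* and *CDH17* were called higher, *KRT8* and *KRT18* were called lower, by 0.06 and 0.07 on the log2 scale, and *KRT19* and *CDH1* were not called. Of the 10 fibroblast and smooth muscle markers, 9 stayed under 1 CPM in every library, and *COL1A2*, *DES*, *ACTG2* and *CNN1* had no count at all. The sum of these 10 markers was 21.7 to 24.6 CPM in control and 30.4 to 34.8 CPM in KD cells, nearly all of it *COL1A1*. The 3 endothelial markers and the leukocyte markers *PTPRC* and *CD3E* also stayed under 1 CPM, while the leukocyte list summed to 2505 to 2733 CPM in control and 2542 to 2615 CPM in KD cells, mostly from *LYZ*. *CD68*, the fourth gene of that list, was called higher, at 35.8 ± 2.62 CPM in control and 51.9 ± 2.89 CPM in KD cells. It shares 85.62% of its exonic bases with other genes, so its level is uncertain. The part of these markers in the results was not tested. In bulk RNA, fewer cells of a type and less RNA per cell cannot be told apart.

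Of the 43 genes, 42 passed the filter on low counts and entered the quasi-likelihood fit in edgeR, with Benjamini-Hochberg adjustment over all 19778 genes tested. At an adjusted p under 0.05, 14 were called lower in IGF2BP3 KD cells, among them α-actinin 1, vinculin, radixin and the Arp3 subunit, and 3 were called higher, *MYH10*, *TPM1* and *VASP*. Of all genes tested, 20.4% were called, 10.6% lower and 9.87% higher. Actin genes are abundant, and abundant genes were called more often. Among the 31 members with a mean of at least 100 CPM, 11 (35.5%) were lower and 2 (6.45%) higher, beside 30.5% lower and 21.0% higher among the 2247 tested genes at that level. The share of lower members was thus close to the share among equally abundant genes. The median log2 fold change of the members was -0.06, against 0.01 for all genes tested, and at 100 CPM and above it was -0.07 against -0.03.

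The 3 KD values lay wholly above or wholly below the 3 control values for 25 of the 42 members (59.5%), beside 35.8% of all genes tested. At 100 CPM and above this held for 17 of 31 members (54.8%), beside 65.0% of the genes at that level. Together the 43 genes took 1.42%, 1.45% and 1.44% of all TMM-scaled counts in the control libraries, and 1.33%, 1.34% and 1.35% in the KD libraries. The groups did not overlap, and the crosslinkers contributed most to the difference, at 0.291% ± 0.00800 of the counts in control and 0.248% ± 0.00331 in KD cells (SD, n = 3).

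**Figure D1:**
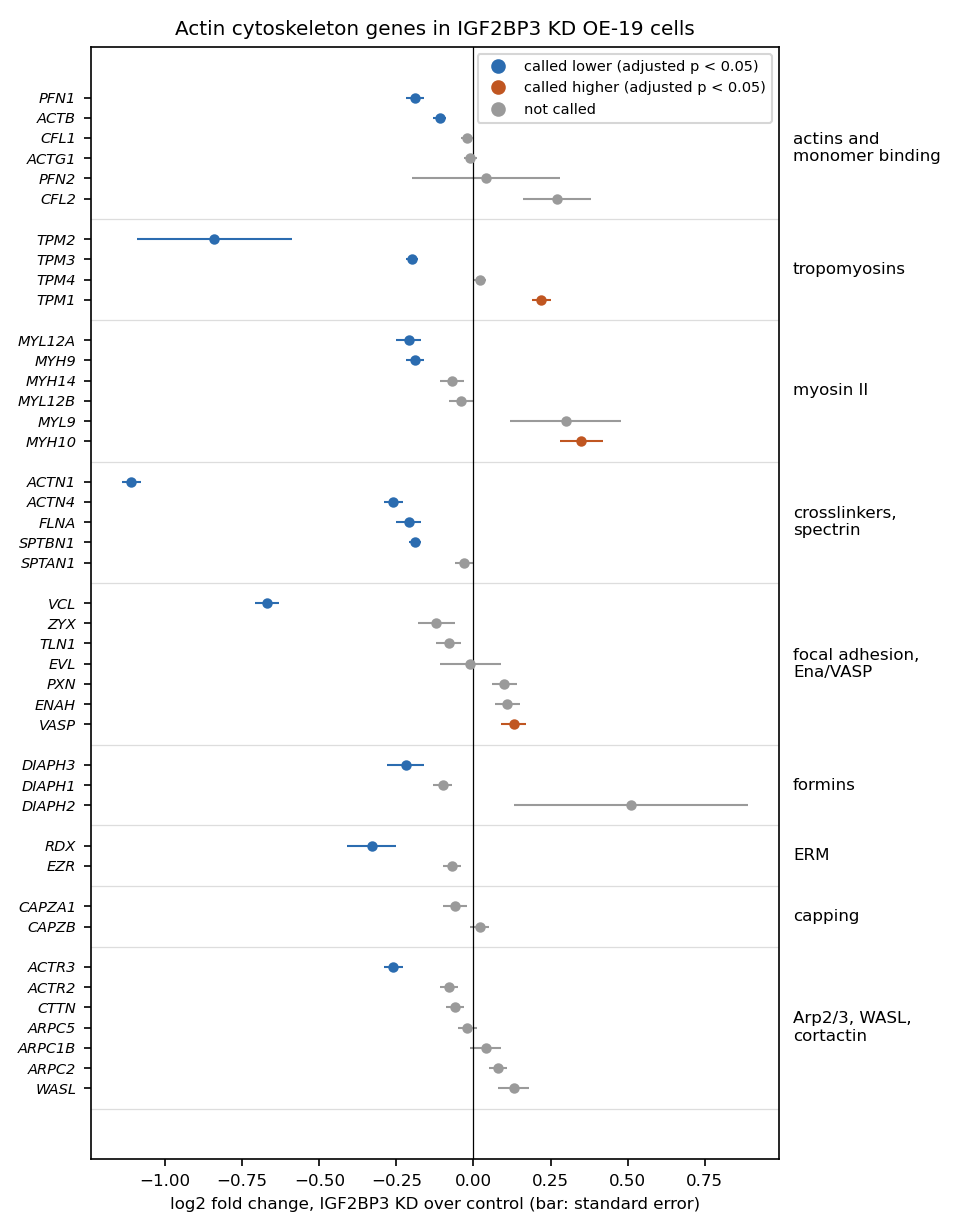
Log2 fold change (IGF2BP3 KD over control, x axis) of the 42 tested members, grouped by role, with bars for the standard error. *ACTN1* at -1.11 and *VCL* at -0.67 stand apart from the other members with narrow errors, while *TPM2* at -0.84 and *DIAPH2* at 0.51 have wide ones.

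Some of these transcripts carry short words in the 3′ UTR that went with the direction of change across the transcriptome in an earlier look at these data, so their presence here is a description and no independent evidence. The words are GATTACT and ACACATC, searched on the sense strand only in the 3′ UTR of each gene's canonical GENCODE v44 transcript, and they do not overlap each other. Among 13789 tested coding genes, 1064 held GATTACT, of which 376 were lower and 72 higher, and 1314 held ACACATC, of which 141 were lower and 373 higher. GATTACT was in the 3′ UTR of 4 of the 42 tested members (9.52%), beside 7.72% of the coding genes. Of these 4, *VCL* and *ACTR3* were called lower and *PFN2* and *DIAPH2*, both with few counts, were not called. Each site is shown with its flanks as 30 bases, 5′ to 3′, with the word in capitals, to let the contexts be compared.
VCL, base 1711 of a 3′ UTR of 2000 bases, chr10:74119869-74119898, plus strand: tactaaagaaaGATTACTtagaggaaataa
ACTR3, base 630 of 5141, chr2:113958074-113958103, plus strand: tagtgctttctGATTACTcgcattctgttt
ACTR3, base 4752 of 5141, chr2:113962196-113962225, plus strand: aggtagtggggGATTACTaagtgatcatga
PFN2, base 606 of 1585, chr3:149965865-149965894, minus strand: aatgggatattGATTACTaaaataagttaa
DIAPH2, base 2718 of 5680, chrX:97602024-97602053, plus strand: gggactacccaGATTACTccaggataatct

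The positions are on hg38. The other 12 members called lower have no GATTACT in this 3′ UTR, and they include *ACTN1*, which fell furthest and has the word in none of its annotated 3′ UTRs. When any annotated 3′ UTR of a gene was searched, *SPTBN1*, which was called lower, was added for both words. GATTACT was then in 5 members (11.9%), 3 of them lower, beside 9.20% of the coding genes, and ACACATC in 3 members (7.14%), 2 of them lower, beside 11.5%. ACACATC was in 2 tested members (4.76%), beside 9.53% of the coding genes. They are *ACTR3*, which holds both words, and *ARPC5*, which codes for the smallest Arp2/3 subunit and stood at 288 ± 4.20 CPM in control and 285 ± 3.54 CPM in KD cells (adjusted p = 0.74).
ACTR3, base 5109 of 5141, chr2:113962553-113962582, plus strand: gaattggaaccACACATCtttttcttattg
ARPC5, base 4611 of a 3′ UTR of 6686 bases, chr1:183622903-183622932, minus strand: tgaatagggcaACACATCagaagtacaaat

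Among the crosslinkers, 4 of 5 members were lower and none was higher. All 5 had a mean of at least 100 CPM, where 30.5% of tested genes were lower and 21.0% higher. A share of so few genes is coarse, and it was not tested. *ACTN1* (ENSG00000072110, chromosome 14, 68874128 to 68979440, minus strand) codes for α-actinin 1, which bundles filaments in stress fibers and at focal adhesions. It stood at 202, 206 and 203 CPM in control replicates 1, 2 and 3 and at 93.4, 94.6 and 94.7 CPM in KD replicates 1, 2 and 3. The KD libraries were all below the lowest control library by a wide margin, and the spread within each group was small. The mean fell from 204 ± 1.83 to 94.2 ± 0.715 CPM (SD, n = 3), a log2 fold change of -1.11 ± 0.03 (SE, the standard error, adjusted p = 2.3e-09). The 6 fits that each omitted a library gave -1.12 to -1.11.

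*ACTN4* (chromosome 19, 38647649 to 38731589, plus strand) codes for α-actinin 4, the other non-muscle α-actinin. Its values were 886, 971 and 943 CPM in control and 763, 785 and 788 CPM in KD libraries, without overlap. The log2 fold change was -0.26 ± 0.03 (SE, adjusted p = 1.7e-04). *ACTN4* shares 14.17% of its exonic bases with *CAPN12* on the opposite strand. Filamin A, which joins filaments into orthogonal networks, fell by 0.21 on the log2 scale (*FLNA*, 210 ± 8.70 to 181 ± 4.40 CPM). β-spectrin *SPTBN1*, part of the membrane skeleton, went from 1026 ± 18.1 to 900 ± 6.58 CPM (log2 fold change -0.19, adjusted p = 9.5e-05). Its partner, α-spectrin *SPTAN1*, was not called, with 537 ± 8.82 CPM in control and 527 ± 12.2 CPM in KD cells (adjusted p = 0.57).

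Among the 7 adhesion and Ena/VASP genes, 1 was lower and 1 was higher, beside 10.6% and 9.87% of all genes tested. *VCL* (ENSG00000035403, chromosome 10, 73995193 to 74121363, plus strand) codes for vinculin, which binds talin and α-catenin and reinforces adhesions under load. It stood at 134, 128 and 133 CPM in control and at 81.2, 84.5 and 83.3 CPM in KD libraries. The 2 groups were far apart, and the log2 fold change was -0.67 ± 0.04 (SE, adjusted p = 5.8e-07). *VCL* shares 11.1% of its exonic bases with *AP3M1* on the opposite strand, and the strand setting of the counting is not given, although the library kit was directional. Vinculin's partner talin was not called, with *TLN1* at 188 ± 5.15 CPM in control and 178 ± 6.35 CPM in KD cells (adjusted p = 0.13). The adaptor genes *ZYX* (zyxin) and *PXN* (paxillin) had log2 fold changes of -0.12 and 0.10 and adjusted p-values of 0.19 and 0.11.

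Ena/VASP proteins lengthen filaments at adhesions and leading edges. *VASP* was called higher, at 123 ± 4.58 CPM in control and 135 ± 2.70 CPM in KD cells (log2 fold change 0.13, adjusted p = 0.027). The call depended on single libraries. It was lost without control replicate 1 (log2 fold change 0.10), control replicate 3 (0.14), KD replicate 1 (0.12) or KD replicate 3 (0.12), with adjusted p between 0.058 and 0.1. *ENAH* had a log2 fold change of 0.11 and an adjusted p of 0.075 and *EVL* one of -0.01 and 0.97, so neither was called.

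**Figure D2:**
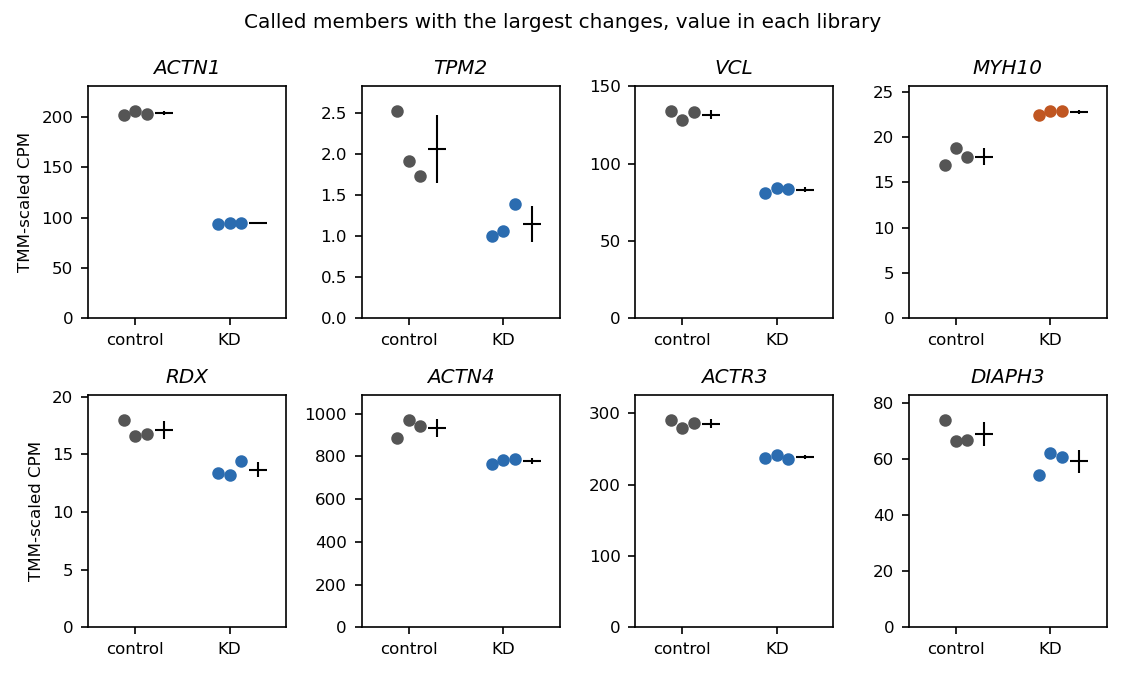
TMM-scaled CPM (y axis, from 0) in each control and KD library for the 8 called members with the largest absolute log2 fold changes, with the mean and SD of each group beside the points. The groups do not overlap in any panel, but the gap is wide only in *ACTN1* and *VCL*.

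The actins themselves and the proteins that bind actin monomers moved little. *ACTG1* (γ-actin) stood at 1811, 1850 and 1858 CPM in control and at 1830, 1817 and 1828 CPM in KD libraries. The groups overlapped, and the log2 fold change was -0.01 ± 0.02 (SE). *ACTB* (β-actin) was called lower, at 1027 ± 10.9 and 951 ± 22.0 CPM, a change of -0.11 on the log2 scale (adjusted p = 0.0052). Per kb of merged exon length these were the most abundant members in control cells, with 454 CPM for *ACTG1* and 233 CPM for *ACTB*, followed by *PFN1* with 201 CPM and *ACTN4* with 152 CPM.

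Profilin delivers actin monomers to growing ends, and *PFN1*, its main gene here, fell by 0.19 on the log2 scale (321 ± 15 to 282 ± 3.17 CPM, adjusted p = 0.0025). Of the 100-base windows of its transcript, 5.226% also lie in the pseudogene *PFN1P1*. *CFL1*, the non-muscle cofilin that severs filaments, was not called, with 589 ± 5.56 and 579 ± 8.15 CPM. *CFL2*, the muscle cofilin, had 7.29 ± 0.216 CPM in control and 8.80 ± 0.841 CPM in KD cells. Its groups did not overlap, but its adjusted p was 0.13. *PFN2* was near 1 CPM in both groups and was not called.

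The 4 tropomyosin genes, whose products coat filaments and set which proteins can bind them, did not move together. *TPM3* went from 873 ± 12.5 to 762 ± 7.60 CPM, with a log2 fold change of -0.20 ± 0.02 (SE, adjusted p = 7.8e-05). *TPM4* was level, at 759 ± 8.62 and 768 ± 6.63 CPM (adjusted p = 0.67). *TPM1* rose from 148 ± 3.65 to 172 ± 3.25 CPM, with a log2 fold change of 0.22 ± 0.03 (SE, adjusted p = 7.8e-04), and shares 22.7% of its exonic bases with antisense genes.

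*TPM2* was the least abundant tropomyosin, at 2.53, 1.92 and 1.74 CPM in control and 1.00, 1.06 and 1.40 CPM in KD libraries. The groups did not overlap, and it was called lower at a log2 fold change of -0.84 ± 0.25 (SE, adjusted p = 0.033). This rests on 54 to 173 counts per library, and the call was lost without control replicate 1 (-0.67), control replicate 2 (-0.89), KD replicate 1 (-0.75) or KD replicate 2 (-0.78). With the replicate number as a block its adjusted p was 0.06.

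The share of each tropomyosin in the family was computed in each library from CPM per kb of merged exon length. *TPM3* made up 44.6%, 44.6% and 44.2% in control and 40.2%, 41.0% and 40.2% in KD libraries. *TPM4* made up 47.2%, 46.9% and 47.7% in control and 50.0%, 49.5% and 50.1% in KD libraries, and *TPM1* went from 7.76% ± 0.227 to 9.40% ± 0.176 (SD, n = 3). The KD and control values did not overlap for any of these. Which gene is the larger in control depends on the length term. Without it *TPM3* made up 49.0% ± 0.267 and *TPM4* 42.6% ± 0.386 in control. With 3 libraries per group, the two-sided exact permutation test used for these shares cannot give a p below 0.1. That smallest p was reached by 18 of the 27 shares in the 10 families, those without overlap. The shares of a family sum to a whole and are not independent, so this count holds some shifts more than once.

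In non-muscle myosin II, the motor that contracts filaments, the heavy chain genes also differed. *MYH10* (chromosome 17, 8474207 to 8631376, minus strand), the heavy chain of myosin IIB, stood at 16.9, 18.8 and 17.8 CPM in control and at 22.5, 22.9 and 22.9 CPM in KD libraries. All KD libraries were above all control libraries, and the log2 fold change was 0.35 ± 0.07 (SE, adjusted p = 0.0032). *MYH9*, the far more abundant heavy chain of myosin IIA, fell by 0.19 on the log2 scale (1141 ± 57.9 to 1001 ± 13.0 CPM, adjusted p = 0.0017). *MYH14*, the heavy chain of myosin IIC, was not called, at 527 ± 28.3 and 504 ± 5.38 CPM.

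By length-scaled levels, *MYH9* made up 56.7%, 56.5% and 56.7% of the 3 heavy chains in control and 54.9%, 54.6% and 53.8% in KD libraries. By these levels *MYH10* stayed under 1% of the family in every library, at 0.461% ± 0.00554 and 0.645% ± 0.00656. That depends on its long merged exon length. Without the length term *MYH10* was above 1% in every library, at 1.06% ± 0.0129 in control and 1.49% ± 0.0184 in KD cells. The share of *MYH14* went from 42.9% ± 0.0893 to 44.9% ± 0.541 although its level was not called, since the shares of a family sum to a whole and *MYH9* fell.

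The regulatory light chain genes *MYL12A* and *MYL12B* are neighbors on the plus strand of chromosome 18, at 3247481 to 3256236 and 3261479 to 3278461. *MYL12A* fell from 136 ± 3.85 to 117 ± 3.67 CPM, with a log2 fold change of -0.21 ± 0.04 (SE, adjusted p = 0.0024). *MYL12B* was not called, at 204 ± 5.87 and 199 ± 7.93 CPM (adjusted p = 0.57). No 100-base window was shared between their transcripts and those of other genes. The share of *MYL12A* in the 3 light chains was 27.3%, 27.5% and 27.3% in control and 25.7%, 24.9% and 24.5% in KD libraries. *MYL9*, the light chain of smooth muscle and stromal cells, was near 3 CPM and was not called (log2 fold change 0.30, standard error 0.18).

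**Figure D3:**
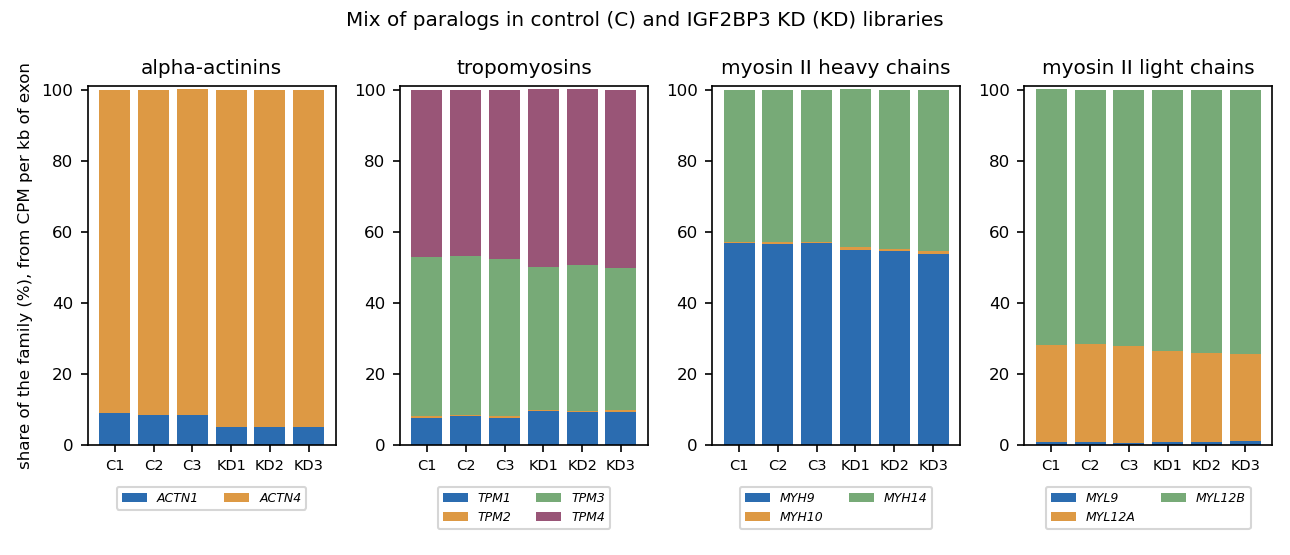
Share of each paralog in its family (y axis, %, from CPM per kb of merged exon length) in the 3 control and 3 KD libraries, for the α-actinins, tropomyosins, myosin II heavy chains and myosin II light chains. *ACTN1* drops from 8.54% to 4.92% of the α-actinins, and *TPM3* from 44.5% to 40.5% of the tropomyosins.

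Arp2/3 starts branched filaments from the side of existing ones, and 5 of its subunits are among the members. *ACTR3*, which codes for Arp3, was the only one of them called. It stood at 291, 279 and 287 CPM in control and at 238, 242 and 236 CPM in KD libraries, with every KD library below every control library. The log2 fold change was -0.26 ± 0.03 (SE, adjusted p = 6.7e-05). *ACTR2*, which codes for Arp2, stood at 554 ± 23.8 and 522 ± 15.2 CPM (adjusted p = 0.11), and *ARPC2* at 183 ± 1.16 and 193 ± 3.16 CPM (adjusted p = 0.077).

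*ARPC1B* stood at 170 ± 10.2 and 175 ± 9.08 CPM and was not called, but 77.83% of its 100-base windows also lie in a readthrough gene, ENSG00000284292, so its level is uncertain. *WASL*, which codes for the activator N-WASP, had a log2 fold change of 0.13 and an adjusted p of 0.082. *CTTN*, which codes for cortactin, a stabilizer of branches, had -0.06 and 0.24. The capping protein genes *CAPZA1* and *CAPZB* were not called, with log2 fold changes of -0.06 and 0.02.

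Of the formins, which elongate unbranched filaments, *DIAPH3* was called lower. It stood at 74.1, 66.5 and 67.0 CPM in control and at 54.5, 62.4 and 61.0 CPM in KD libraries, where control replicate 1 was the highest and KD replicate 1 the lowest. The log2 fold change was -0.22 ± 0.06 (SE, adjusted p = 0.027). It was -0.17 without control replicate 1, -0.17 without KD replicate 1 and -0.25 without KD replicate 3, none of which passed the threshold. *DIAPH1* was not called (213 ± 3.28 and 199 ± 7.78 CPM, adjusted p = 0.062). It was called lower by DESeq2, with RLE scaling, with at least 10 counts in every library, with the replicate block, among coding genes only and without control replicate 1. The third formin gene, *DIAPH2*, had 23 to 60 counts per library.

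The ERM genes differed widely in level. *EZR*, which codes for ezrin, the ERM protein of microvilli, made up 97.6% ± 0.122 of the family in control and 98.0% ± 0.107 in KD cells by length-scaled levels. It stood at 271 ± 5.25 and 259 ± 2.69 CPM and was not called (adjusted p = 0.11). *RDX*, which codes for radixin, stood at 18.0, 16.6 and 16.8 CPM in control and at 13.4, 13.2 and 14.4 CPM in KD libraries. The groups did not overlap, with a log2 fold change of -0.33 ± 0.08 (SE, adjusted p = 0.01). *MSN*, which codes for moesin and is the member that was not tested, had 0, 4 and 0 counts in control and 0, 4 and 5 counts in KD libraries.

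Promoters were also searched, since many actin genes are textbook targets of SRF, which binds the CArG box. RefSeq promoters (GRCh38.p14, 250 bases before to 50 bases after the start) were matched by symbol for 38 of the 43 members, not for *ACTB*, *PFN2*, *MYL9*, *ARPC1B* and *CTTN*. A CArG box was in 3 of the 38 (7.89%), beside 1.29% of 35116 promoters. Repeats of a symbol were left out for the members but not for the 35116, so the units differ. The 3 promoters with the motif are shown. The motif reads as a CArG box on both strands and is in capitals.
ACTG1, chr17:81512874-81512903, minus strand: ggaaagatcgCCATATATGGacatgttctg
TPM4, chr19:16067355-16067384, plus strand: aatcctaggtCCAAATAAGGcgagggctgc
FLNA, chrX:154374709-154374738, minus strand: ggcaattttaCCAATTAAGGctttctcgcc

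Of these genes, *FLNA* was called lower and *ACTG1* and *TPM4* were not called.

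A list of 96 other genes of actin filaments was read from the same fit for comparison. Of its 92 tested genes, 10 (10.9%) were lower and 24 (26.1%) were higher, beside 10.6% and 9.87% of all genes tested. That background is not matched for abundance. At 100 CPM and above, 30.5% of tested genes were lower and 21.0% higher, and this list was not counted at that level. Without each library in turn, 8 to 13 of the 92 genes were lower and 16 to 24 higher. The higher count was 16 or 17 in all of these fits but that without control replicate 1. Their median was 0.07 on the log2 scale, while 14 of the 42 members were lower and 3 higher. No test was made between these lists. The genes that rose include *DSTN*, which codes for destrin, a relative of cofilin, at 1405 ± 47.7 and 1539 ± 20.5 CPM (log2 fold change 0.13, adjusted p = 0.0035), and *NHERF1*, which codes for a scaffold bound by ezrin, at 244 ± 5.24 and 301 ± 1.35 CPM (log2 fold change 0.31, adjusted p = 1.7e-05), both chosen after their values were seen.

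The largest rise among called genes was in *ARPC1A* (ENSG00000241685, chromosome 7, 99325898 to 99366262, plus strand), which codes for the other form of the Arp2/3 subunit made by *ARPC1B*. It stood at 83.5, 82.5 and 82.0 CPM in control and at 202, 207 and 211 CPM in KD libraries. The groups were far apart, with a log2 fold change of 1.32 ± 0.03 (SE, adjusted p = 1.3e-09). *ARPC1A* shares 58.6% of its exonic bases with the readthrough gene ENSG00000284292, and when the counts of both were added the log2 fold change was 1.29. ACACATC is not in its 3′ UTR.

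The next largest rises were in *TAGLN* (0.55), *SCIN* (0.45) and *FMNL1* (0.40), which code for transgelin, the severing protein scinderin and a formin. *TAGLN* shares 47.8% of its exonic bases with other genes. The call of *TAGLN* was lost without control replicate 1 (0.42) or 2 (0.57) and without KD replicate 2 (0.57) or 3 (0.42). That of *FMNL1* was lost without control replicate 2 (0.38) or KD replicate 3 (0.28). The largest falls were in *GSN*, which codes for the severing protein gelsolin, from 67.4 ± 1.75 to 40.6 ± 3.56 CPM (log2 fold change -0.73, adjusted p = 1.6e-05), and in *LIMS1*, an adaptor of integrin adhesions, from 57.7 ± 0.849 to 36.1 ± 1.11 CPM (-0.68, adjusted p = 4.1e-06). *DAAM1*, a formin, and *PPP1R12A*, the targeting subunit of myosin phosphatase, followed at -0.48 and -0.38.

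GATTACT was in the 3′ UTR of 7 of these 92 genes (7.61%), beside 7.72% of the coding genes. Of the 7, 4 were lower and 1 higher, beside 376 lower and 72 higher of 1064 coding genes with the word. The lower ones include *LIMS1*, *DAAM1* and *PPP1R12A*, while *GSN* lacked it there. ACACATC was in 15 of the 92 (16.3%), of which 9 were higher and 2 lower. It was in 2 of the 42 members, and that difference was not tested.

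**Figure D4:**
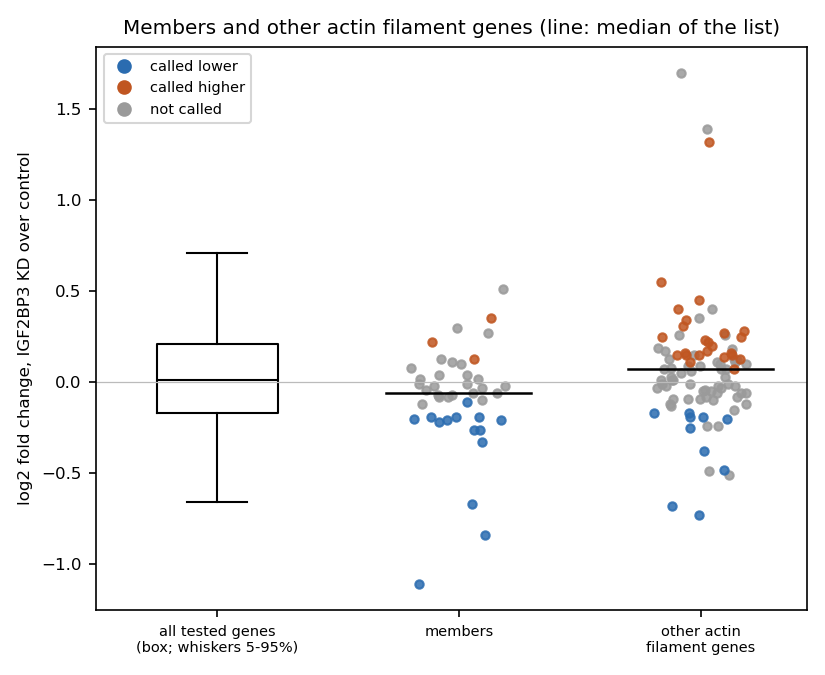
Log2 fold changes (IGF2BP3 KD over control, y axis) of the tested members and the other actin filament genes, each gene a point and each list's median a line, beside a box for all genes tested (whiskers at the 5th and 95th percentile). The medians are -0.06 and 0.07. *ACTN1* is the lowest of the members, with *TPM2* and *VCL* next. *ARPC1A* lies far from the other called genes of its list, while the 2 points above it were not called.

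The 25 tested members that were not called had log2 fold changes between -0.12 and 0.51, and those with large values, *DIAPH2* and *MYL9*, had few counts. For 8 of the 25 (32.0%) the groups did not overlap. The 35.8% of all genes tested includes called genes, so it is no match for this share. The share among genes not called was not computed. Of the 17 called members, 14 kept the call in each of the 6 fits that left out a library, all but *TPM2*, *VASP* and *DIAPH3*. Of the 43 members, 28 share exonic bases with another gene in GENCODE v44, and 6 share at least 10% of them. These 6 are *ACTN4*, *ARPC1B*, *CFL1*, *PXN*, *TPM1* and *VCL*. The counts of genes with shared bases are uncertain.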

How the data were processed

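RNA-seq was done on 3 control and 3 IGF2BP3 KD libraries of OE-19 cells. The deposited values are read counts per gene, not normalized, which the authors made with fastp, HISAT2 on hg38 and featureCounts, per the labels and methods; versions, annotation release and strand setting are not given in the sources used here. Groups came from the sample titles. Of 60612 rows, 132 repeats of 44 identifiers were left out.

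The test used was that of edgeR 4.0.16, run under R 4.3.3 (TMM, filterByExpr with a minimum count of 10 and total of 15, glmQLFit, glmQLFTest, no block, Benjamini-Hochberg over 19778 genes, threshold 0.05), after a test on simulated data. CPM are TMM-scaled. Standard errors are the absolute log2 fold change over the square root of F. Levels per kb use the merged exon length of GENCODE v44 (hg38), which long isoforms inflate. The precision is limited by 3 libraries per group.

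A further list of genes fixed at the outset is not reported here. Members and lists were chosen with earlier results of these data known. Values per library are given for the 8 called members with the largest changes, and for the other actin filament genes the 4 largest called rises and falls with a mean of at least 1 CPM are named. Alternatives were DESeq2 1.42.0, RLE, other filters and thresholds, coding genes only, a replicate block, each library left out, any annotated 3′ UTR and no length term. The comparison at 100 CPM, the CArG search, the shared 100-base windows and the sum of *ARPC1A* with its readthrough gene were added after the data were seen. Python 3.11.15 was used with pandas 2.3.3 and matplotlib 3.10.9.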

Additional observations from a re-analysis of the deposited data

How the results depend on the processing

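Direction and call were kept by 14 of the 17 called members under DESeq2, RLE scaling, both filters, the replicate block and coding genes only. The same 14 kept them with each library left out. No called member changed direction, and neither did *IGF2BP3* or the 16 other called genes followed through these fits. Members that were not called could change sign, such as *PFN2* (-0.09 to 0.15) and *EVL* (-0.07 to 0.03) with a library left out. Without each library in turn, 12 to 15 members were lower and 2 to 3 higher. DESeq2 called 17 lower, adding *ACTR2*, *DIAPH1* and *EZR*, and 3 higher. Asking also for a change of 0.2 or more on the log2 scale left 9 members lower and 5 and 12 other actin filament genes lower and higher, by construction. Among coding genes only, 5 members were higher, with *ARPC2* and *ENAH* added to the 3. Of the other actin filament genes, 14 were higher at an adjusted p under 0.01 and 16 without a filter on low counts. Without the length term, the change in share was 0.07 percentage points for *PFN2*, -2.89 for *MYL12A*, 7.12 for *ACTN4* and -0.94 for *RDX*, against 0.03, -2.34, 3.62 and -0.39 with it. Libraries with the same replicate number had correlations of deviations of -0.002, -0.032 and 0.009 over all genes tested. Noise in genes with few counts lowers such correlations, so they cannot tell whether the samples were paired. With the replicate block 15 members were lower, with *ACTR2* and *DIAPH1* added and *TPM2* lost, and 3 higher. Low counts limit *TPM2*, *PFN2*, *MYL9*, *DIAPH2* and *MSN*.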
